A study of Caenorhabditis elegans with 12 samples.

Results

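Detected genes with a chemoreceptor-type name (symbols that start with *sr*, go on with 1 or 2 letters, a hyphen and a number) were described across 4 strains of *Caenorhabditis elegans*. The name pattern met 1175 of the 46904 genes in the count files, not counting 1 *srw* gene that the rule leaves out by name. Of these, 75 held a total of at least 60 counts over the 12 libraries and are the members. Only 38 of the 75 belong to families counted here as chemoreceptor families, a list set by name. The other 37 share the name pattern but belong to families outside that list. Among them are 18 *srlf* genes, 6 *srp* serpins (inhibitors of proteases) and the *src-1* and *src-2* tyrosine kinases. Whether some of the 37 encode receptors was not examined. The members were thus chosen by their summed counts, so their being detected is a description and no finding.

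RNA of whole young adult hermaphrodites was sequenced, with 3 libraries per strain. The first strain, called *gsr-1a trxr-2* here, carries gsr-1 (syb266 mito) and trxr-2 (tm2047), both on chromosome III. The *gsr-1a* single mutant carries gsr-1 (syb266 mito) III alone, a deletion made by genome editing of the first exon of *gsr-1*, which encodes the mitochondrial targeting sequence of glutathione reductase, so that the cytosolic form remains. The *trxr-2* single mutant carries trxr-2 (tm2047) III, a null allele of mitochondrial thioredoxin reductase. The wild type is N2, without either allele. Each mutation is germline and present in all cells, each genotype is 1 strain, and all worms were synchronized by bleaching.

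Nematode chemoreceptors are G protein-coupled receptors with 7 membrane-spanning segments that sit in the cilia of sensory neurons and bind odorants, tastants and pheromones. The genes form large families, many of them clustered on chromosome V, which are grouped into the Sra, Srg and Str superfamilies and several families outside them. Most are known to be expressed in a few neurons only, so that little of their RNA is present in a whole worm. In bulk RNA of this kind, fewer cells of a type and less RNA per cell cannot be told apart.

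The libraries held 12114187 to 19688212 counts. In the strains that carry trxr-2 (tm2047), *trxr-2* had 0 or 1 counts per library, against 129 to 264 counts in the *gsr-1a* single mutant and wild type. A pair of libraries stood apart on the yolk protein genes *vit-1* to *vit-6*, which adult intestine makes. Their summed level was 16955 CPM (counts relative to the library size, normalized by TMM) in *trxr-2* replicate 1 and 3003 CPM in wild-type replicate 1, while the other 10 libraries had 34454 to 76476 CPM. The paper describes its RNA data as independent experiments with biological replicates, while the labels do not say whether replicates came from separate cultures. The p-values set differences between strain means against the spread between these libraries.

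Of the 1116 genes of chemoreceptor families in the files, 339 (30.4%) had 0 counts in all 12 libraries, 739 had 1 to 59 counts and 38 reached 60 or more. The median gene had 2 counts in total. The members were spread over 14 of 22 families. The *srd* family had 6 of 67 genes among them, *srh* 5 of 220, *srx* 5, *srr* 4 of 9, *srv* 3 of 30 and *srsx* 3 of 37. The families *sre*, *sri*, *srj* and *srm* had 2 members each, and *sra*, *srab*, *srg* and *srt* had 1 each. No gene of *srb*, *srbc*, *srn*, *srtx*, *sru*, *srw*, *srxa* or *srz* reached the minimum. By superfamily, the members were 4 of 124 Sra genes, 10 of 309 Srg genes, 17 of 394 Str genes and 7 of 288 genes of the *srbc*, *srr*, *srsx*, *srw* and *srz* families.

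**Figure D1:**
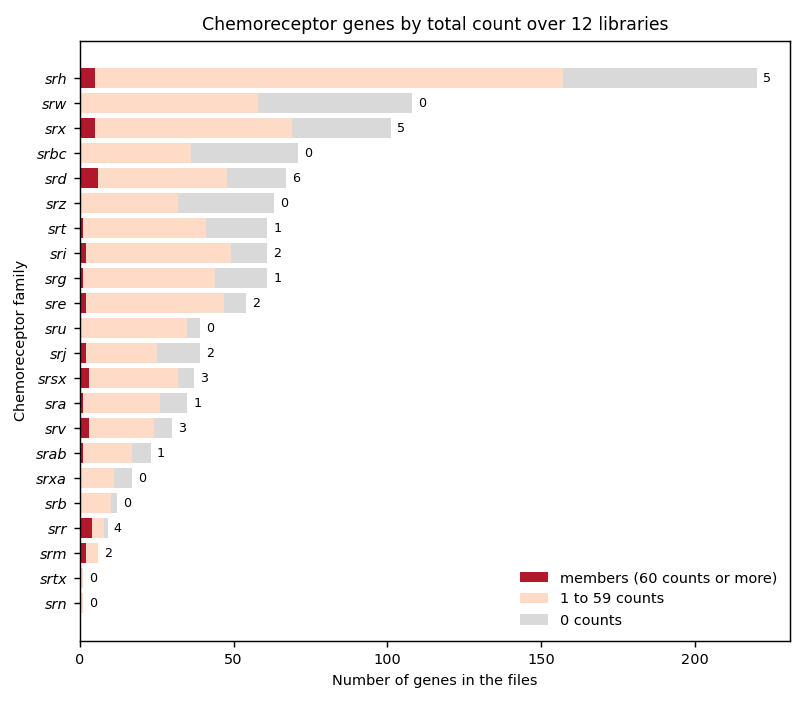
Number of genes (horizontal axis) in each of the 22 chemoreceptor families (vertical axis), split by total count over 12 libraries into members with 60 or more counts, genes with 1 to 59 and genes with 0. The number at the end of each bar counts the members, which range from 0 to 6 per family.

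None of 21 receptors with a textbook role or site of expression was a member. The list includes *sra-6*, used as a marker of sensory neurons, *srbc-64* and *srbc-66*, receptors of dauer pheromone, and *srg-36* and *srg-37*, receptors of an ascaroside. The highest of these had 19 counts in total over 12 libraries, and 2 had 0. At this depth, levels of these receptors could not be compared between strains.

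The minimum of 60 counts fell within a continuous range. Just inside it were *sre-44* with 60 counts, *srd-53* with 61 and *srd-70* with 61. Just outside were *sru-25* with 59, *sre-23* with 55 and *srv-32* with 54. Of the 38 chemoreceptor members, 23 had under 120 counts in total and 5 had over 1000. The total had a median of 96.5 and ranged from 60 to 9341. In 33 of the 38, every library held at least 1 count, and 1 count was worth 0.0487 to 0.0870 CPM.

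The genes' positions were not used by the rule. Their spans enter it indirectly, since the minimum is on counts summed over the whole span, where a longer gene can gather more. On chromosome V lay 23 of the 38 members (60.5%), against 709 of the 1078 chemoreceptor genes below the minimum (65.8%). The median gene span was 2302 bases in the members, against 1592 bases in the genes below the minimum. All 38 are annotated as protein coding. Counts were summed over whole gene spans with introns, on 1 strand. No chemoreceptor member overlapped a gene of its own strand with 60 or more counts, and 3 overlapped one on the opposite strand (*srh-48*, *srsx-25* and *srv-1*). In 5 members a gene of the same strand with 60 or more counts ended within 1000 bases upstream: *srd-53*, *sre-9*, *srh-71*, *srm-6* and *srsx-34*. Whether reads run on from those genes was not tested.

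The level of the members was uneven. One gene, *sri-40* of the Str superfamily, held 41.5% of all counts of the 38, and the 6 highest (*sri-40*, *srr-4*, *srv-1*, *srh-237*, *srsx-34* and *srj-14*) held 84.98%. Per kb of gene span, the mean level over the 12 libraries was 19.4 CPM for *sri-40*, 7.74 for *srh-237*, 5.51 for *srv-1*, 5.46 for *srr-4*, 2.39 for *srsx-34* and 1.21 for *srj-14*. The other 32 were below these, and the median of the 38 was 0.253 CPM per kb, with the lowest at 0.0970 (*srd-32*). Within the *srd* family *srd-27* had the highest level per kb, at 0.441 CPM, and within *srx* it was *srx-58*, at 0.327 CPM.

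**Figure D2:**
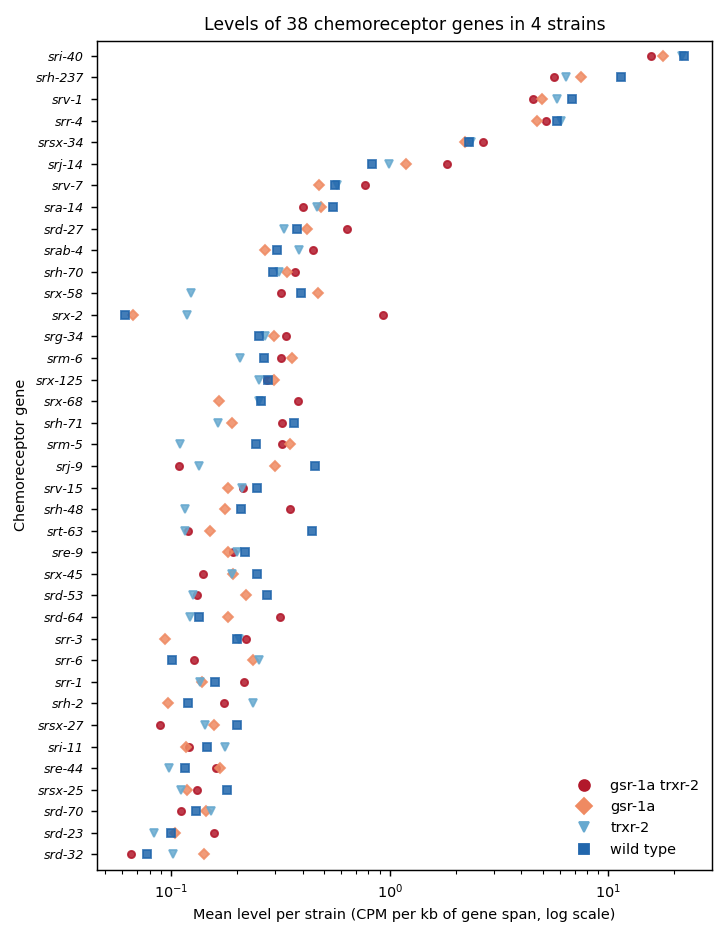
Mean level per strain of the 38 chemoreceptor members in CPM per kb of gene span (horizontal log axis), 1 row per gene and 1 symbol per strain, each symbol the mean of 3 libraries. The genes run from *sri-40* at 19.4 CPM per kb over all libraries to *srd-32* at 0.0970, and for most genes the 4 strains lie close together relative to that range.

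For *sri-40*, *srr-4* and *srv-1* the order of the strains rests on at least 103 counts in every library. *srr-4* had 15.5, 17.1 and 16.2 CPM in *gsr-1a trxr-2* worms, 11.5, 20.6 and 12.6 CPM in *gsr-1a* worms, 19.9, 21.5 and 16.1 CPM in *trxr-2* worms, and 19.1, 18.8 and 17.2 CPM in the wild type. All 3 double mutant libraries were below all 3 of the wild type by a small margin, but the log2 fold change of -0.17 ± 0.20 (SE) did not pass the test (adjusted p = 0.586, edgeR's quasi-likelihood test), and each single mutant overlapped the wild type. *srv-1* had 7.87, 10.7 and 6.73 CPM in *gsr-1a trxr-2* worms, 9.40, 7.26 and 11.2 CPM in *gsr-1a* worms, 13.9, 8.81 and 10.04 CPM in *trxr-2* worms, and 14.4, 11.97 and 11.8 CPM in the wild type. Here too the double mutant libraries all lay below the wild type, and the log2 fold change of -0.59 ± 0.23 did not pass the test (adjusted p = 0.104). The span of *srv-1* overlaps *zak-1*, a kinase gene on the opposite strand with 1177 counts in total. *srsx-34* had 10.4, 10.6 and 11.5 CPM in *gsr-1a trxr-2* worms, 7.05, 12.7 and 7.08 CPM in *gsr-1a* worms, 13.6, 7.69 and 7.44 CPM in *trxr-2* worms, and 11.3, 9.31 and 7.55 CPM in the wild type. The groups overlapped in each comparison of *srsx-34* with the wild type.

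The summed level of the 38 chemoreceptor members was 103.4, 110.1 and 106.7 CPM in *gsr-1a trxr-2* worms, a mean of 106.7 ± 3.35 (SD, n = 3). It was 109.5, 114.4 and 96.8 CPM in *gsr-1a* worms (106.9 ± 9.08) and 138.5, 117.5 and 107.0 CPM in *trxr-2* worms (121.0 ± 16.0). In the wild type it was 152.6, 121.9 and 119.8 CPM (131.4 ± 18.4). The highest libraries of *trxr-2* and of wild type were those with low yolk gene levels, and without these the means were 112.3 CPM in *trxr-2* and 120.9 CPM in wild type. All 3 double mutant sums lay below all 3 wild-type sums with or without replicate 1. Without *sri-40*, the sums averaged 67.2 ± 3.94 CPM in *gsr-1a trxr-2* worms, 62.3 ± 6.27 CPM in *gsr-1a* worms, 66.2 ± 14.9 CPM in *trxr-2* worms and 75.5 ± 10.05 CPM in the wild type, and the double mutant and the wild type overlapped. Without replicate 1 of both strains, the sums without *sri-40* averaged 57.8 CPM in *trxr-2* and 69.7 CPM in wild type. No test was made on these sums, since the members were chosen with earlier results known.

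The 1078 chemoreceptor genes below the minimum summed to 30.96, 34.3 and 34.6 CPM in *gsr-1a trxr-2* worms, 27.1, 33.2 and 27.1 CPM in *gsr-1a* worms, 31.8, 24.2 and 21.2 CPM in *trxr-2* worms, and 30.98, 31.3 and 27.9 CPM in the wild type. Per library, 223 to 370 of the 1116 chemoreceptor genes had at least 1 count, and 36 to 38 of the 38 members. The numbers of detected genes depend on the depth of each library and are not compared between strains.

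Each mutant strain was set against the wild type to ask how loss of mitochondrial glutathione reductase, of mitochondrial thioredoxin reductase, or of both changes transcript levels. In *gsr-1a trxr-2* worms, 5 of the 38 chemoreceptor members passed the test at an adjusted p under 0.05 (edgeR's quasi-likelihood test, adjusted over all 15669 genes tested). *srx-2* and *srj-14* were higher, and *srh-237*, *sri-40* and *srt-63* were lower. These are 13.2% of the 38, and 18.3% of all genes tested were called in that comparison, 12.3% higher and 6.06% lower. The share of the members called was thus not above the background. The median log2 fold change was 0.07 over the 38 and 0.03 over all genes tested, and 19 of the 38 values were above 0. DESeq2 called 2 higher and 2 lower, without *srt-63*. Without wild-type replicate 1, 1 member was called higher and 1 lower, beside 9.45% higher and 3.7% lower of all genes. Groups did not overlap for 6 members on the higher side and 6 on the lower side (12 of 38), where 44.9% of all genes did not overlap, 23.6% higher and 21.3% lower.

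**Figure D3:**
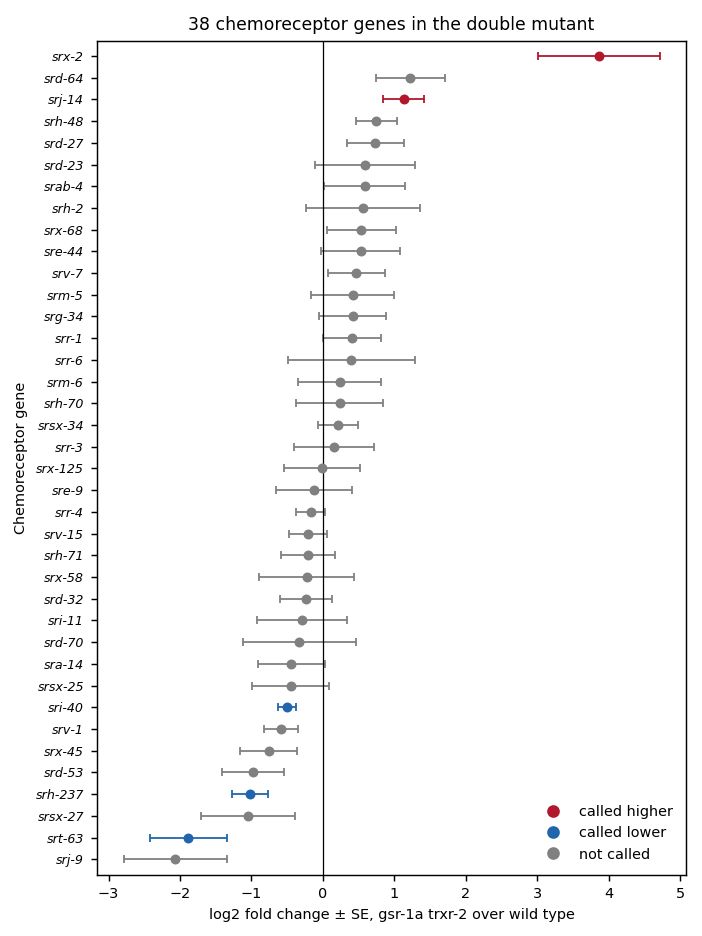
Log2 fold change of *gsr-1a trxr-2* over wild type (horizontal axis, bars ± SE) for each of the 38 chemoreceptor members (vertical axis), coloured by whether the gene was called. Values run from -2.07 (*srj-9*, not called) to 3.86 (*srx-2*), with 19 above 0, and the 5 called genes are 2 higher and 3 lower.

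*srx-2* (WBGene00005893; WBcel235, chromosome V, 9009475 to 9010788, plus strand), a member of the Srg superfamily, had the largest difference of the 38. It had 25, 11 and 22 counts in *gsr-1a trxr-2* libraries, 0, 4 and 1 counts in *gsr-1a*, 0, 5 and 2 counts in *trxr-2*, and 2, 0 and 2 counts in wild type. Each double mutant library exceeded all 9 others. In normalized levels it averaged 1.22 ± 0.555 CPM in *gsr-1a trxr-2*, 0.0884 ± 0.110 CPM in *gsr-1a*, 0.155 ± 0.165 CPM in *trxr-2* and 0.0808 ± 0.0739 CPM in wild type (SD, n = 3 each). Its log2 fold change in the double mutant was 3.86 ± 0.85 (adjusted p = 0.00977, edgeR's quasi-likelihood test), and the call held with each library left out. With 58 of its 74 counts in the double mutant and 16 in the other 9 libraries, *srx-2* reached the minimum only through that strain.

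*srj-14* (WBGene00005602; WBcel235, chromosome V, 7369759 to 7372131, plus strand), of the Str superfamily, had 4.26, 5.13 and 3.59 CPM in *gsr-1a trxr-2* libraries, 2.70, 2.70 and 3.09 CPM in *gsr-1a*, 3.38, 2.23 and 1.43 CPM in *trxr-2*, and 1.67, 1.85 and 2.39 CPM in wild type. Every double mutant library was above all 9 others. The log2 fold change was 1.13 ± 0.29 (adjusted p = 0.0195, edgeR's quasi-likelihood test). The call was lost without double mutant replicate 1 or 2 and without wild-type replicate 1 or 2, with adjusted p of 0.0547 to 0.0669. The *gsr-1a* libraries also lay above all 3 of the wild type, with a log2 fold change of 0.52 ± 0.30 (adjusted p = 0.672).

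**Figure D4:**
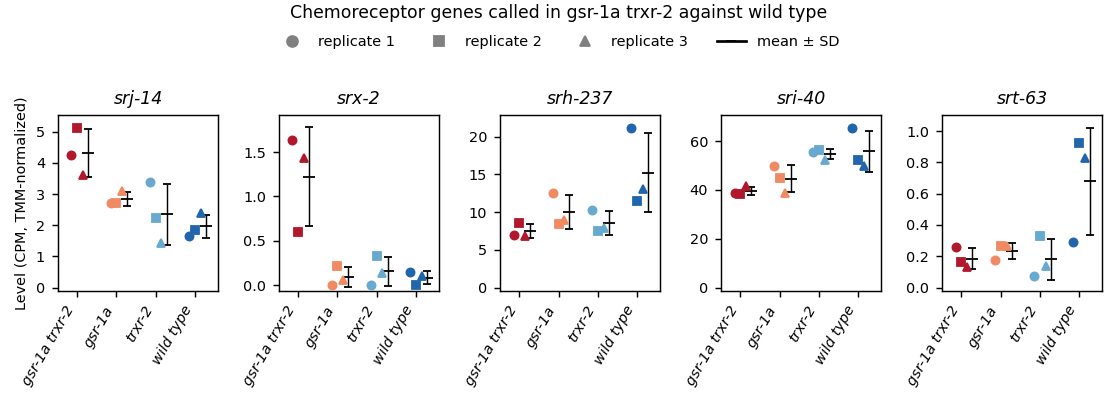
Levels in CPM (vertical axis, 1 panel per gene with its own scale) of the 5 chemoreceptor members called in *gsr-1a trxr-2* against wild type, by strain (horizontal axis), with a symbol per replicate and black bars for the mean ± SD of 3 libraries. *srj-14* and *srx-2* are highest in the 3 double mutant libraries, and in *srh-237* and *sri-40* wild-type replicate 1, at 21.2 and 65.5 CPM, is the highest point.

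*srh-237* (WBGene00005444; WBcel235, chromosome V, 17090362 to 17091693, plus strand), of the Str superfamily, had 7.02, 8.53 and 6.86 CPM in *gsr-1a trxr-2* libraries, 12.5, 8.48 and 8.95 CPM in *gsr-1a*, 10.3, 7.43 and 7.85 CPM in *trxr-2*, and 21.2, 11.4 and 13.1 CPM in wild type. The double mutant and *trxr-2* libraries all lay below the wild type, and 1 of the *gsr-1a* libraries overlapped it. In *gsr-1a trxr-2* the log2 fold change was -1.02 ± 0.25 (adjusted p = 0.0154, edgeR's quasi-likelihood test). In the single mutants it was -0.61 ± 0.25 for *gsr-1a* (adjusted p = 0.547) and -0.83 ± 0.25 for *trxr-2* (adjusted p = 0.840), neither of them called. The 3 comparisons share the wild-type libraries. Without wild-type replicate 1, which had the highest level and low yolk genes, the double mutant value was -0.71 (adjusted p = 0.0538), and without the 4 libraries of replicate number 1 it was -0.67 (adjusted p = 0.0220). The call was also lost without double mutant replicate 1 (adjusted p = 0.0606) or 3 (adjusted p = 0.0551).

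*sri-40* (WBGene00005552; WBcel235, chromosome II, 3177963 to 3180476, plus strand), the most abundant chemoreceptor member, had 38.7, 38.3 and 41.6 CPM in *gsr-1a trxr-2* libraries, 49.96, 44.9 and 38.8 CPM in *gsr-1a*, 55.5, 56.5 and 52.4 CPM in *trxr-2*, and 65.5, 52.3 and 49.9 CPM in wild type. The double mutant libraries were below all of the wild type and of *trxr-2*. The fall was small, with a log2 fold change of -0.50 ± 0.13 in *gsr-1a trxr-2* (adjusted p = 0.0191, edgeR's quasi-likelihood test). In *gsr-1a* it was -0.33 ± 0.13 (adjusted p = 0.531) and in *trxr-2* -0.03 ± 0.13 (adjusted p = 0.977). Without wild-type replicate 1 the double mutant value was -0.37 (adjusted p = 0.0567), and without the 4 libraries of replicate number 1 it was -0.36 (adjusted p = 0.0234). The call was also lost without double mutant replicate 1 (adjusted p = 0.0688) or 2 (adjusted p = 0.0580).

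*srt-63* (WBGene00020877; WBcel235, chromosome V, 3254602 to 3256151, minus strand), of the Srg superfamily, had 4, 3 and 2 counts in *gsr-1a trxr-2* libraries, 2, 5 and 5 counts in *gsr-1a*, 1, 5 and 2 counts in *trxr-2*, and 4, 17 and 17 counts in wild type. The high values were those of wild-type replicates 2 and 3, and in CPM wild-type replicate 1 was above the double mutant libraries by a small margin. The log2 fold change was -1.88 ± 0.54 in *gsr-1a trxr-2* (adjusted p = 0.0304, edgeR's quasi-likelihood test), -1.50 ± 0.51 in *gsr-1a* (adjusted p = 0.527) and -1.88 ± 0.55 in *trxr-2* (adjusted p = 0.840). The double mutant call did not hold in DESeq2 (adjusted p = 0.0523), with no filter (adjusted p = 0.0502), with only the strains compared (adjusted p = 0.0521), nor in 5 of the 12 fits with a library left out. These were the fits without any 1 of the double mutant libraries or without wild-type replicate 2 or 3. With 38 of its 67 counts in the wild type and 29 in the other 9 libraries, *srt-63* lay just above the minimum. It would not have reached the minimum without the strain in which it was high.

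None of the 5 called chemoreceptor members overlapped or closely followed a detected gene in the sense given above. The other members of their families had other values. In the *srh* family, *srh-2*, *srh-48*, *srh-70* and *srh-71* had log2 fold changes of 0.55, 0.75, 0.23 and -0.21 in the double mutant beside -1.02 of *srh-237*, and none of the 4 passed the test. In *srx*, the other 4 members had log2 fold changes between -0.76 (*srx-45*) and 0.54 (*srx-68*), beside 3.86 of *srx-2*. In *srj*, *srj-9* had 2, 0 and 5 counts in *gsr-1a trxr-2* libraries, 4, 3 and 14 counts in *gsr-1a*, 3, 2 and 3 counts in *trxr-2*, and 10, 11 and 12 counts in wild type. Its log2 fold change of -2.07 ± 0.72 in the double mutant was opposite in sign to that of *srj-14* and did not pass the test (adjusted p = 0.0683). Within a family, differences between genes were not tested.

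The 6 *srd* members differed from each other in sign. In the double mutant the log2 fold changes ran from -0.97 ± 0.44 for *srd-53* to 1.22 ± 0.48 for *srd-64*, with adjusted p of 0.174 and 0.102. *srd-64* had 21, 14 and 11 counts in *gsr-1a trxr-2* libraries, 11, 9 and 4 counts in *gsr-1a*, 4, 6 and 6 counts in *trxr-2*, and 7, 5 and 9 counts in wild type. Its double mutant libraries were above all of the wild type. *srm-5* and *srm-6*, which lie 336 bases apart on the same strand of chromosome V, had log2 fold changes of 0.42 and 0.23 in the double mutant and were not called.

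In *gsr-1a* worms, none of the 38 chemoreceptor members was called by edgeR's quasi-likelihood test or by DESeq2, where 0.0255% of all genes tested were called, 0.0191% higher and 0.00638% lower. At an unadjusted p under 0.05, 1 member was higher and 4 were lower (2.63% and 10.5% of the 38), beside 4.59% higher and 3.6% lower of all genes. Without wild-type replicate 1, or without wild-type replicate 2, the lower ones were 2, and the shares of all genes in these fits are not given here. The smallest p-values were those of *srt-63*, *sri-40*, *srh-237* and *srh-71*, a receptor gene of the Str superfamily. *srh-71* had 7, 8 and 7 counts in *gsr-1a trxr-2* libraries, 3, 3 and 7 counts in *gsr-1a*, 2, 4 and 4 counts in *trxr-2*, and 5, 9 and 14 counts in wild type. Its log2 fold change was -0.96 ± 0.41 in *gsr-1a* (adjusted p = 0.570, edgeR's quasi-likelihood test) and -1.15 ± 0.43 in *trxr-2* (adjusted p = 0.840), against -0.21 ± 0.38 in the double mutant (adjusted p = 0.731). The median over the 38 was -0.18 in *gsr-1a*, and over all genes tested it was -0.00. Groups did not overlap for 3 members on each side, where 16.5% of all genes did not overlap, 8.69% higher and 7.8% lower.

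In *trxr-2* worms, again none of the 38 was called by edgeR's quasi-likelihood test or by DESeq2, where 0.0638% of all genes tested were called, 0.0319% higher and 0.0319% lower. At an unadjusted p under 0.05, 0 were higher and 6 were lower (15.8% of the 38), beside 1.43% higher and 4.31% lower of all genes. The lower ones were 3 without wild-type replicate 1, where 4.9% of all genes were lower, 5 without *trxr-2* replicate 1, where 9.66% were, and 3 without the 4 libraries of replicate number 1, where 9.61% were. They were also 3 without *trxr-2* replicate 2 or wild-type replicate 3, fits for which the shares of all genes are not given here. The median was -0.14 over the 38 and -0.04 over all genes tested. Groups did not overlap for 1 member on the higher side and 7 on the lower side, where 11.5% of all genes did not overlap, 3.07% higher and 8.42% lower. Wild-type replicate 1 was the highest of its 3 libraries for 20 of the 38 members (52.6%) and for 43.4% of all genes tested. The same held for *trxr-2* replicate 1 in 21 of the 38 (55.3%) and in 52.1% of all genes. The part of these libraries in the lower values was not tested.

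The interaction of both mutations asks whether the double mutant departs from the sum of the single effects on the log2 scale. None of the 38 chemoreceptor members was called by edgeR's quasi-likelihood test or by DESeq2, where 0.728% of all genes tested were called, 0.689% higher and 0.0383% lower. At an unadjusted p under 0.05, 2 were higher and 1 was lower, beside 9.27% higher and 1.68% lower of all genes. The smallest p was that of *srh-48*, with 22, 24 and 25 counts in *gsr-1a trxr-2* libraries, 6, 17 and 15 counts in *gsr-1a*, 5, 7 and 9 counts in *trxr-2*, and 14, 15 and 16 counts in wild type. The double mutant libraries were all higher than the wild type and the *trxr-2* libraries all lower. The interaction was 1.76 ± 0.43 on the log2 scale (adjusted p = 0.106, edgeR's quasi-likelihood test). An unnamed gene on the opposite strand, WBGene00007376, overlaps *srh-48* and had 307 counts in total. The median interaction was 0.30 over the 38 and 0.02 over all genes tested.

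Of the 4 strains, *gsr-1a trxr-2* had the highest mean for 14 of the 38 members (36.8%), *gsr-1a* for 6, *trxr-2* for 5 and wild type for 13 (34.2%). Over all genes tested the shares were 37.5% for *gsr-1a trxr-2*, 17.9% for *gsr-1a*, 12.2% for *trxr-2* and 32.3% for wild type. The lowest mean was that of *trxr-2* for 14 of the 38 (36.8%) and of *gsr-1a* for 10 (26.3%). It was that of *gsr-1a trxr-2* for 9 (23.7%) and of wild type for 5 (13.2%). Over all genes tested the lowest shares were 19.8% for *trxr-2*, 17.8% for *gsr-1a*, 34.0% for *gsr-1a trxr-2* and 28.3% for wild type. These differences in share were not tested.

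Genes that act with the receptors were counted from lists, to be read beside the 12.3% of all genes tested that were higher and the 6.06% that were lower in the double mutant. Another 194 receptor genes, which are those of the *str* family together with *odr-10*, the diacetyl receptor, lie outside the name pattern. Only 7 of these were tested, and none was called in the double mutant by edgeR's quasi-likelihood test or by DESeq2, with 1 higher and 1 lower at an unadjusted p under 0.05. Of the sensory G protein alpha subunits, which relay receptor signals, 1 of 15 tested was higher and none lower. It was *gpa-1*, at 2.88 ± 0.419 CPM in *gsr-1a trxr-2* and 1.42 ± 0.0411 CPM in wild type (log2 fold change 1.01 ± 0.24, adjusted p = 0.0139), a call lost without double mutant replicate 1 (adjusted p = 0.0619). Of the guanylyl cyclases, which make the second messenger cGMP, 1 of 21 was higher and none lower. It was *gcy-5*, a receptor-type cyclase of a salt-sensing neuron, at 0.729 ± 0.287 CPM in *gsr-1a trxr-2* and 0.0910 ± 0.0485 CPM in wild type (log2 fold change 2.84 ± 0.50, adjusted p = 0.00325). With 35 of its 64 counts in the double mutant and 29 in the other 9 libraries, *gcy-5* lay just above the minimum. It would not have reached the minimum without the double mutant libraries. None of 4 transduction channel genes was called by edgeR's quasi-likelihood test or by DESeq2, with 1 higher at an unadjusted p under 0.05.

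Among 10 tested genes of receptor trafficking and regulation, 2 were higher and none lower. *kin-29*, a kinase that regulates chemoreceptor expression in sensory neurons, had 28.02 ± 1.48 CPM in *gsr-1a trxr-2* and 19.9 ± 3.28 CPM in wild type (log2 fold change 0.49 ± 0.14, adjusted p = 0.0304). *tax-6*, which encodes calcineurin A, had 78.7 ± 4.06 CPM in *gsr-1a trxr-2* and 59.04 ± 9.34 CPM in wild type (log2 fold change 0.41 ± 0.13, adjusted p = 0.0437). Without wild-type replicate 1 neither was called, with adjusted p of 0.0876 for *kin-29* and 0.103 for *tax-6*. The call of *kin-29* was also lost without any 1 of the double mutant libraries (adjusted p of 0.0609 to 0.129, edgeR's quasi-likelihood test). That of *tax-6* was also lost without any 1 of the double mutant or *gsr-1a* libraries. It was lost as well without *trxr-2* replicate 2 or 3 and without wild-type replicate 3 (adjusted p of 0.0524 to 0.172 over these fits). The 18 general neuron markers, all tested, had 2 higher and none lower in the double mutant (*egl-3*, a peptide-processing protease, and *unc-13*, which primes synaptic vesicles), with a median log2 fold change of 0.37. Their summed level was 553 to 618 CPM in *gsr-1a trxr-2* and 446 to 513 CPM in wild type. Of 20 tested markers of ciliated neurons, the cells that hold the receptors, 1 was higher (*kap-1*, a subunit of the cilium motor kinesin) and none lower. Of the uncalled markers, *klp-11* lay lower, with a log2 fold change of -0.89 ± 0.31 (adjusted p = 0.0648, edgeR's quasi-likelihood test). *osm-3*, also uncalled, lay higher, with a log2 fold change of 1.26 ± 0.44 (adjusted p = 0.0655, edgeR's quasi-likelihood test). The 20 markers had a median log2 fold change of -0.01 with 10 above 0, and DESeq2 called 2 of them higher and 1 lower. Their summed level was 62.5, 63.5 and 66.01 CPM in *gsr-1a trxr-2* and 42.1, 65.96 and 72.7 CPM in wild type, with the 42.1 CPM in wild-type replicate 1, and without that library the wild-type mean was 69.3 CPM. Without it *unc-13* (adjusted p = 0.110) and *kap-1* (adjusted p = 0.0807) were not called and *egl-3* was. The neuron markers called higher in that fit were still 2, *egl-3* and another marker that the main fit had not called. None of the ciliated neuron markers was called in it. The call of *egl-3* was lost without double mutant replicate 1 or 3 and without wild-type replicate 2 (adjusted p of 0.0799 to 0.108, edgeR's quasi-likelihood test). Among other fits, *unc-13* was lost without any 1 of the double mutant libraries and *kap-1* without double mutant replicate 1 or 3. The part of these marker levels in the receptor values was not tested.

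The other 5 called members were all *srlf* genes, which were not counted as chemoreceptor genes here. In *gsr-1a trxr-2* worms, 5 of the 18 *srlf* members were higher and none lower: *srlf-2*, *srlf-11*, *srlf-17*, *srlf-18* and *srlf-26*. This is 27.8% of the 18, where 18.3% of all genes tested were called in either direction and 12.3% were higher. What *srlf* proteins do is not annotated in the sources used here. All 5 lie on chromosome IV, as do 14 of the 18 *srlf* members.

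*srlf-18* (WBGene00010885; WBcel235, chromosome IV, 11100631 to 11101478, minus strand) had 28.3, 6.91 and 28.2 CPM in *gsr-1a trxr-2* libraries, 1.48, 4.29 and 5.54 CPM in *gsr-1a*, 0.301, 0.920 and 0.546 CPM in *trxr-2*, and 1.02, 2.12 and 4.24 CPM in wild type. Its double mutant libraries were above all others, but replicate 2 was far below replicates 1 and 3. The log2 fold change was 3.07 ± 0.63 (adjusted p = 0.00662, edgeR's quasi-likelihood test). *srlf-17* (WBGene00010886; 11101962 to 11102695, minus strand), 483 bases from it, had 6.56, 1.73 and 6.21 CPM in *gsr-1a trxr-2* libraries, 0.0870, 1.17 and 1.54 CPM in *gsr-1a*, 0, 0.197 and 0.273 CPM in *trxr-2*, and 0.218, 0.762 and 1.61 CPM in wild type. Its log2 fold change was 2.41 ± 0.74 (adjusted p = 0.0426), a call kept in only 4 of the 12 fits with a library left out and lost, among others, without wild-type replicate 1 (adjusted p = 0.108). *srlf-24*, 2047 bases on the other side of *srlf-17*, had 2.27 ± 0.902 CPM in *gsr-1a trxr-2* and 2.09 ± 0.383 CPM in wild type and was not called (adjusted p = 0.852).

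**Figure D5:**
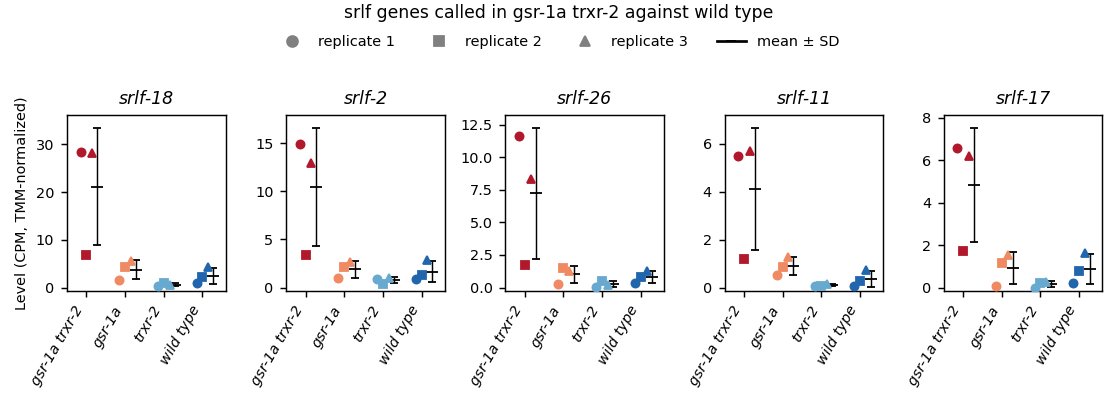
Levels in CPM (vertical axis, 1 panel per gene with its own scale) of the 5 *srlf* genes called in *gsr-1a trxr-2* against wild type, by strain (horizontal axis), with a symbol per replicate and black bars for the mean ± SD of 3 libraries. In each panel double mutant replicates 1 and 3 are far above replicate 2, for example 28.3 and 28.2 against 6.91 CPM in *srlf-18*.

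*srlf-2* (WBGene00016179; 8490221 to 8490857, plus strand) had 14.96, 3.40 and 13.01 CPM in *gsr-1a trxr-2* libraries, 0.957, 2.12 and 2.66 CPM in *gsr-1a*, 0.903, 0.394 and 0.956 CPM in *trxr-2*, and 0.871, 1.25 and 2.87 CPM in wild type. The log2 fold change was 2.61 ± 0.58 (adjusted p = 0.00996, edgeR's quasi-likelihood test). Its neighbour *srlf-3*, 1739 bases away, was not called, at 2.94 ± 0.542 CPM in *gsr-1a trxr-2* and 2.50 ± 0.475 CPM in wild type (adjusted p = 0.663). *srlf-11* (WBGene00008759; 10885238 to 10886015, minus strand) had 84, 22 and 87 counts in *gsr-1a trxr-2* libraries, 6, 16 and 24 counts in *gsr-1a*, 1, 1 and 2 counts in *trxr-2*, and 1, 5 and 15 counts in wild type. Its log2 fold change was 3.39 ± 0.67 (adjusted p = 0.00550, edgeR's quasi-likelihood test). *srlf-26* (WBGene00011961; 13678951 to 13680333, plus strand) had 177, 32 and 128 counts in *gsr-1a trxr-2* libraries, 3, 28 and 24 counts in *gsr-1a*, 1, 8 and 3 counts in *trxr-2*, and 5, 15 and 26 counts in wild type. Its log2 fold change was 3.08 ± 0.71 (adjusted p = 0.0118, edgeR's quasi-likelihood test), lost without double mutant replicate 1 (2.57, adjusted p = 0.0532).

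Together the 5 *srlf* genes summed to 66.97, 14.96 and 61.5 CPM in *gsr-1a trxr-2* libraries, 3.31, 9.91 and 12.3 CPM in *gsr-1a*, 1.35, 2.10 and 2.12 CPM in *trxr-2*, and 2.54, 5.22 and 10.7 CPM in wild type. Sperm marker genes, a list of 55 with 50 tested, were called higher in the double mutant for 45 genes and lower for none, and without wild-type replicate 1 for 43 and none. Their summed level was 1807, 798 and 1658 CPM in *gsr-1a trxr-2* libraries, 900, 565 and 472 CPM in *gsr-1a*, 483, 246 and 204 CPM in *trxr-2*, and 258, 306 and 360 CPM in wild type. The sperm markers were thus also lowest in replicate 2 of the double mutant, whereas in *gsr-1a* their highest library, replicate 1, had the lowest sum of the *srlf* genes. The part of sperm RNA in the *srlf* values was not tested.

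In neither single mutant was any *srlf* member called by edgeR's quasi-likelihood test or by DESeq2. At an unadjusted p under 0.05, none of the 18 was higher and 1 lower in *gsr-1a*, and none was higher and 3 were lower in *trxr-2*, beside the shares of all genes given above. In the interaction, the 5 genes had log2 values of 3.59 to 4.69 and adjusted p of 0.0655 (*srlf-18*), 0.105 (*srlf-2*), 0.134 (*srlf-26*), 0.143 (*srlf-17*) and 0.173 (*srlf-11*) in edgeR's quasi-likelihood test. None was called there, while DESeq2 called all 5, beside 2.30% higher and 0.217% lower of all genes by DESeq2. The other 13 *srlf* members were not called in any comparison by edgeR's quasi-likelihood test or by DESeq2, and at an unadjusted p under 0.05 the double mutant and the interaction had 0 of them and each single mutant had 1 lower. Per kb of span they include the 2 highest levels of all 75 members, *srlf-1* at 783 CPM per kb and *srlf-7* at 207 CPM per kb over the 12 libraries. Not scaled by span, *srlf-1* had 675 ± 97.5 CPM in *gsr-1a trxr-2* and 602 ± 86.2 CPM in wild type (adjusted p = 0.582), and *srlf-7* had 208 ± 32.9 CPM in *gsr-1a trxr-2* and 224 ± 57.5 CPM in wild type (adjusted p = 0.777).

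None of the remaining 19 members was called in any comparison by edgeR's quasi-likelihood test. At an unadjusted p under 0.05, 3 were higher and 1 was lower in *gsr-1a trxr-2*, 0 in *gsr-1a*, 2 were higher in *trxr-2* and 3 were higher in the interaction. All genes tested had 17.8% higher and 14.7% lower at that p in the double mutant, and the shares in the other comparisons are those given above. The 2 in *trxr-2* were the noncoding genes *srpr-2.1* and *srpr-2.2*, and without *trxr-2* replicate 2 there were 0, with the log2 fold change of *srpr-2.1* at 0.69 in place of 3.92. DESeq2 called 2 of them higher in the double mutant (*srp-1* and *srp-8*, both serpins), beside 13.6% higher of all genes, and 0 in the other comparisons. Among the abundant ones were *srrt-1*, the homolog of the RNA-processing factor Serrate, and the serpin *srp-7*. Their log2 fold changes in *gsr-1a trxr-2* were -0.19 ± 0.12 for *srrt-1* (adjusted p = 0.277, edgeR's quasi-likelihood test) and -0.07 ± 0.11 for *srp-7* (adjusted p = 0.668, edgeR's quasi-likelihood test). The serpin *srp-8* was nearest to the threshold, with 33, 26 and 37 counts in *gsr-1a trxr-2* libraries, 8, 28 and 11 counts in *gsr-1a*, 11, 13 and 8 counts in *trxr-2*, and 11, 12 and 23 counts in wild type. Its double mutant libraries were above all of the wild type, with a log2 fold change of 1.20 ± 0.38 (adjusted p = 0.05002, edgeR's quasi-likelihood test). Over all 75 members, 7 were called higher and 3 lower in the double mutant (13.3%).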

How the data were processed

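The authors deposited raw counts of read pairs per gene, 1 table for each of 12 libraries. According to the submitters' processing notes, FastQC 011.9, HISAT2, SAMtools and featureCounts 2.0.0 were used with the WBcel235 genome. Per the file headers, pairs were counted strand by strand from the first to the last base of each gene of Ensembl release 97. Introns are thus included, and pairs that fit several genes or places are lost, which lowers counts of near-identical genes. Libraries were TruSeq Stranded mRNA from mirVana RNA.

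Symbols were matched for 93.8% of identifiers. Genes with at least 60 counts in total (15669, so that every member was tested) were fitted in edgeR 4.0.16 (R 4.3.3) with TMM and 1 mean per strain over 12 libraries, which leaves 8 residual degrees of freedom. Calls are at an adjusted p under 0.05 (Benjamini-Hochberg over all genes). An SE is the log2 fold change over the square root of F. An exact permutation test of 3 against 3 libraries cannot go below p = 0.1 and was not used. The fit was tested on simulated data. Precision is limited by counts of a few per library for most members, and levels between genes are per kb of span.

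Members and lists were chosen with earlier results of these data known. Named were called members, the 4 smallest p-values per comparison, the highest level per family with 3 or more members, genes at the minimum, textbook receptors, the 6 highest levels and up to 3 genes per list. Other members were named after their values were seen. Some members that this rule names are not reported here. Alternatives were DESeq2 1.42.0, RLE size factors, edgeR's own filter, no filter, over 1 CPM in 3 libraries, a replicate block, only the strains compared, and leaving out libraries.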

Additional observations from a re-analysis of the deposited data

How the results depend on the processing

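Directions of the called members did not turn under any alternative, and the calls of *srx-2*, *srlf-2*, *srlf-11* and *srlf-18* held in all of those that tested them. In the double mutant, 7 members were called higher and 3 lower. Leaving out 1 library at a time gave 4 to 9 higher and 0 to 3 lower, and among the 38 chemoreceptor members 1 to 2 higher and 0 to 3 lower, with none lower without double mutant replicate 1 and 1 lower without wild-type replicate 1. Without the 4 libraries of replicate number 1, 5 members were called lower. The counts in this paragraph were not set beside the shares of all genes called in the same fits. With the filter of over 1 CPM in 3 libraries, only 11 chemoreceptor members could be tested. Of these, 1 was called higher, and *srh-237* and *sri-40* kept their lower calls. In the interaction, where the main count was 0, DESeq2 called 5 members higher, the fit with no filter 1, and leaving out a library 0 to 4, the last without double mutant replicate 2. No chemoreceptor member was called in the single mutants or the interaction under any alternative. Of the single-gene values under alternatives, 451 kept their side of the threshold, 23 passed it newly and 29 no longer passed it. The causes were not tested.

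The labels do not say that a replicate number marks a shared batch, but the deposited files of 1 number carry 1 date in their names. Same-numbered libraries of different strains had correlations of their deviations from the strain means of -0.0918 to 0.526 over 18 pairs, and 9 were over 0.1. All 3 pairs were over 0.1 for *trxr-2* and wild type (0.260 to 0.526) and for *gsr-1a* and wild type (0.125 to 0.219), and 1 of 3 was for *gsr-1a trxr-2* and wild type. With the replicate number as a block, 8 members were called higher and 5 lower in the double mutant, and 0 in the other comparisons, by edgeR's quasi-likelihood test. With the block, chemoreceptor members at an unadjusted p under 0.05 were 1 higher and 4 lower in *gsr-1a* and 0 higher and 5 lower in *trxr-2*. The shares of all genes with the block are not given here, so these counts were not set against a background.

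Most members lie near the limit of these libraries. For 30 of the 38 chemoreceptor members the mean was under 1 CPM, and the depth does not allow small differences to be seen there.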

Other observations

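Some members had single libraries far from the rest. *srap-1* had 715, 526 and 647 counts in *gsr-1a trxr-2* libraries, 576, 448 and 633 counts in *gsr-1a*, 346, 526 and 544 counts in *trxr-2*, and 7, 391 and 545 counts in wild type, with the 7 counts in wild-type replicate 1, the library with the lowest yolk gene level. The noncoding genes *srpr-2.1* and *srpr-2.2*, each 299 bases long and on chromosome III, had 244 and 252 counts in *trxr-2* replicate 2 and at most 35 and 28 counts in any other library. *srh-2* had 44 counts in *trxr-2* replicate 1, against 1 to 21 counts in the other 11 libraries. These are values only, chosen after they were seen.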
